A study of Mus musculus with 6 samples.

Results

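The common reference genes followed here were Hprt, B2m, Actb, Gapdh, Ppia, Ywhaz, Tbp and Gusb, whose transcripts are often used as the fixed denominator of an expression measurement. They were taken by name, and every probe that the platform annotation assigns to them was included, which gave 24 of the 45281 probes of the array and 8 of the 10194 genes tested. The array samples were 3 of mouse embryonic stem cells electroporated with a vector for a short hairpin RNA against Chd9 (shChd9) and 3 with a control transfection, which the labels do not describe further. All 6 grew in 15% foetal bovine serum with leukemia inhibitory factor on a feeder layer of mouse embryonic fibroblasts stopped from dividing with mitomycin C. All were selected with puromycin, starting 24 h after transfection and lasting 48 h, before total RNA was taken. The cell line, the strain and the source of the feeders are not named in the labels, and each sample is a mixture of stem cells and whatever feeder cells were collected with them. Nothing in the labels says that the samples came from separate cultures, so p-values rest on differences among 6 samples that may be technical repeats.

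A reference gene is useful where its transcript level per cell stays put across the conditions compared. The 8 genes serve unrelated processes, which is why they are often measured together. Hprt, carried on the X chromosome, encodes the enzyme that returns hypoxanthine and guanine to the purine pool. Cells without it survive thioguanine, and stem cell lines selected for that loss are in common use. Whether the line used here carries an intact Hprt gene was not analysed here. B2m encodes the light chain of class I major histocompatibility complex (MHC) molecules, which display peptides at the cell surface. Undifferentiated stem cells are known for low class I display, and fibroblasts for a clear one. Actb is the main non-muscle actin, and Gapdh the glycolytic enzyme that oxidises glyceraldehyde phosphate. Ppia is cyclophilin A, a prolyl isomerase. Ywhaz is an adaptor protein that binds phosphorylated partners, and Tbp is the TATA-binding protein that nucleates transcription initiation complexes. Gusb is the lysosomal beta-glucuronidase.

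The sequences before the transcription start are shown for the 2 members whose levels moved together across the arrays, Hprt and B2m, and for Ppia, a member that held its level. They are the 250 bases before the RefSeq start (GRCm38.p6), and 6 of the 8 members had such an entry. Capitals mark matches on either strand to 4 motifs: the TATA element TATAA, the GC box GGGCGG, the CCAAT box CCAAT and the core of the interferon response element (GAAA, any 2 bases, GAAA).
Hprt promoter, chrX:52987828-52988077, plus strand: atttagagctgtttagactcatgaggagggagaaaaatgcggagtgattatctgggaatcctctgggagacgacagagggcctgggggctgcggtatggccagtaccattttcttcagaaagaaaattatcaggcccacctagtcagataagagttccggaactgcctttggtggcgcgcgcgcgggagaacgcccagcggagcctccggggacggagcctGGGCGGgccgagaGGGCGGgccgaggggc
B2m promoter, chr2:122147437-122147686, plus strand: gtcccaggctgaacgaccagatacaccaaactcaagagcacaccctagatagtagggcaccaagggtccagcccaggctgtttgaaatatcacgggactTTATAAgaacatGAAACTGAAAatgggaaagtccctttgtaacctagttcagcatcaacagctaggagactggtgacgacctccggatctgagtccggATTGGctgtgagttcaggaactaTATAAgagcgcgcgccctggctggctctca
Ppia promoter, chr11:6415617-6415866, plus strand: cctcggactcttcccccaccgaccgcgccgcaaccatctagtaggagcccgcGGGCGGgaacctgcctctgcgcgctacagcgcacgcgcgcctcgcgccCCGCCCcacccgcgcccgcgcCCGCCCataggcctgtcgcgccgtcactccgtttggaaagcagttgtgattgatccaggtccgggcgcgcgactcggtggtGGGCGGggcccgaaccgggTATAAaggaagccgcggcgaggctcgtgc
The Hprt stretch held 2 GC boxes, beginning 29 and 16 bases before the start, and none of the other 3 motifs. The B2m stretch held TATAA 30 bases before the start, a CCAAT box on the minus strand at 53 bases and an interferon response core at 139 bases. A further TTATAA there counts on both strands, as overlapping matches at 150 and 151 bases. The Ppia stretch held TATAA at 29 bases and 4 GC boxes. Among 32841 promoter windows of the same length, 22.8% held TATAA, 32.7% a GC box, 33.9% a CCAAT box and 2.98% the interferon core. The Hprt window had 17 CG dinucleotides, the B2m window 8 and the Ppia window 38, against a median of 6 over all windows. These are matches of letters, and no binding was measured.

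The 6 arrays lay on one slide with the samples of a group side by side, so position on the slide and group cannot be told apart. They had a mean raw intensity between 356 and 464 and between 39.2% and 40.8% of probes detected. A probe counted as detected on an array where its deposited detection p was under 0.05. Values below are log2 intensities after background correction and quantile normalization. With 3 arrays a group, precision is limited by their number. Pairs of arrays correlated across probes with r between 0.973 and 0.988. Stem cell markers were present, with 20 of 21 listed genes detected on at least 3 arrays. Their mean lay between 10.62 and 10.84 in shChd9 samples and between 10.70 and 10.88 in control samples. Feeder fibroblast markers were also present, with 29 of 36 listed genes detected. Of the others, Col6a3 and Fbn1 had no probe under that name. Col1a2, Col3a1, Col5a2, Postn and Cdh11 had probes but were not detected on at least 3 arrays. The mean of the 29 was 9.26, 8.16 and 8.73 in shChd9 samples 1 to 3 and 8.78, 7.81 and 8.41 in control samples 1 to 3. The summed intensity of these 29 markers spanned 19952 to 37014 in shChd9 samples and 15794 to 26934 in control samples. The feeder level differed from sample to sample within both groups, and the groups overlapped. By marker, 28 of 29 lay higher in shChd9 samples, with a median log2 fold change of 0.40 and 0 called (limma), and the feeder mean was 0.38 higher. In such bulk samples fewer cells of a type and less RNA per cell cannot be told apart. The targeted gene checked the labels: on its brightest probe ILMN_2697954, Chd9 measured 6.56, 6.32 and 6.64 in shChd9 samples and 7.36, 7.74 and 7.80 in control samples. The groups did not overlap on that probe, and the log2 fold change was -1.13 ± 0.18 (SE, adjusted p = 0.540 over all probes, limma). A second Chd9 probe, ILMN_1235114, gave -1.11 ± 0.16. The third and dimmest, ILMN_1226311, gave 0.35 ± 0.21 with overlapping groups.

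Of the 24 reference gene probes, 21 were detected on at least 3 arrays and were tested. All but 1 of these were detected on all 6 arrays, the exception being the dimmer Hprt probe ILMN_2776552, detected on 5. The Hprt probe ILMN_2767487, the B2m probe ILMN_2670561 and the Ywhaz probe ILMN_2510612 were not detected on any array, with values of at most 4.66, and say nothing of their genes. Each gene is described by its probe with the highest mean.

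Hprt and B2m differed from array to array by about as much as the feeder marker mean did, while the other 6 genes stayed within narrow ranges. The SD over the 6 arrays was 0.58 for Hprt, 0.61 for B2m and 0.51 for the feeder mean. Hprt spanned 2.88-fold and B2m 3.31-fold over the 6 arrays. Gapdh spanned 1.20-fold, Ppia 1.19-fold, Ywhaz 1.23-fold, Actb 1.31-fold, Tbp 1.35-fold and Gusb 1.43-fold. Between shChd9 and control samples none of the 8 was called after adjustment over all genes (limma), beside 0% of all 10194 genes. Hprt and B2m rose with the feeder marker mean in a fit across all genes, with slopes of 1.17 ± 0.16 and 1.16 ± 0.19 (log2 per log2, SE).

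**Figure D1:**
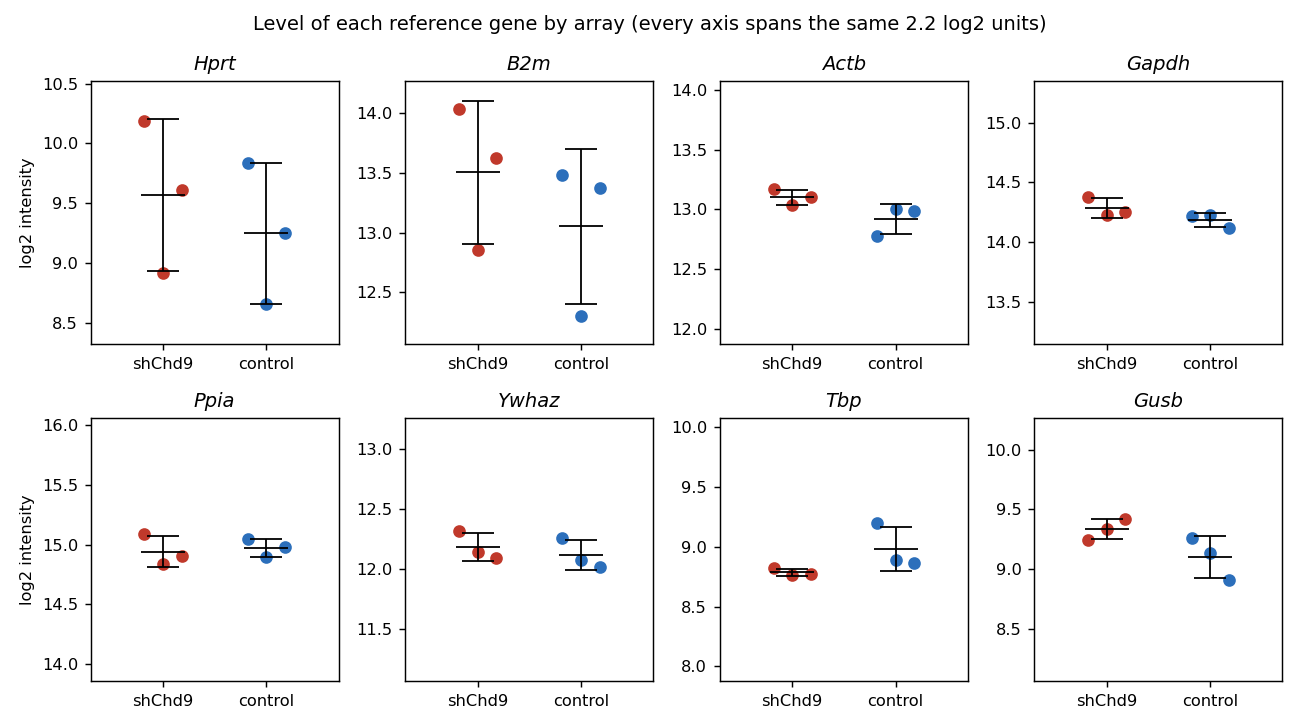
Log2 intensity of the 8 reference genes on each array, shChd9 samples left and control samples right in every panel, with the mean and SD of 3 arrays in black. Hprt lies between 8.66 and 10.19 and B2m between 12.30 and 14.03 over the 6 arrays, whereas Gapdh lies between 14.12 and 14.38.

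Hprt measured 10.19, 8.92 and 9.61 in shChd9 samples 1 to 3, against 9.83, 8.66 and 9.25 in control samples 1 to 3. In each group sample 1 was highest and sample 2 lowest, and the groups overlapped. The group means were 9.57 ± 0.64 in shChd9 and 9.25 ± 0.59 in control samples (SD, n = 3 each). The log2 fold change was 0.32 ± 0.36 (SE), with a 95% interval of -0.51 to 1.15 and an adjusted p of 0.936 over all genes (limma). In linear terms the interval runs from 0.704-fold to 2.22-fold. Within groups Hprt had a pooled SD of 0.61, and 2.14% of the tested genes had a larger one. Among genes of like mean level the share was 1.57%.

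The dimmer Hprt probe gave the same order of highest and lowest array. ILMN_2776552 measured 5.64, 5.24 and 5.45 in shChd9 samples and 5.51, 4.73 and 5.12 in control samples. Over the 6 arrays it correlated with the brighter probe at r = 0.918 and rho = 0.943. Its log2 fold change was 0.32 ± 0.22 (SE), and an adjusted p of 0.932 (limma, all probes). Both probes were highest in shChd9 sample 1 and lowest in control sample 2.

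The Hprt level followed the feeder marker mean array by array. In a limma fit with group and the feeder marker mean of each array as terms, run over all 10194 genes, the Hprt slope was 1.17 ± 0.16 (SE) with a 95% interval of 0.80 to 1.55 and an adjusted p of 0.0168. Of the 8 members 2 were called, Hprt and B2m, both positive, beside 0.981% of all genes (0.942% with a positive and 0.0392% with a negative slope). The feeder markers themselves were called in 8 of 29, or 27.6%, with slopes from -0.15 to 3.19. Each of them enters the mean it is fitted on, so their share is no benchmark for the members. Tested by probe, 2 of 21 member probes were called, beside 0.666% of all probes and 0.643% with a positive slope. Pearson's r between Hprt and the feeder mean was 0.990 and Spearman's rho 1, with exact two-sided permutation p-values of 0.00139 and 0.00278. The first is the smallest p the 720 pairings gave. Computed for every gene and adjusted over all genes, these p-values became 0.185 and 0.234, and with 6 arrays no gene had an adjusted p below 0.185 for r. Without the 2 arrays farthest from the median feeder mean r was 0.988.

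Subtracting the feeder mean removed most of the spread of Hprt. Hprt minus the feeder mean was 0.93, 0.76 and 0.88 in shChd9 samples and 1.05, 0.85 and 0.84 in control samples. The SD over all 6 arrays was 0.10, against 0.58 for Hprt itself. This match in size belongs to the mean of the listed markers, as the Hprt slope on their median was 0.59. With the feeder mean as a covariate the log2 fold change of Hprt was -0.12 ± 0.15 (SE), with a 95% interval of -0.47 to 0.22, opposite in sign to the value without it. The dimmer Hprt probe had a slope of 0.55 ± 0.19 (limma, adjusted p = 0.281, all probes), and an r of 0.934 with the feeder mean.

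The size of the Hprt slope changed little with 1 array left out, while its call depended on which array that was. With 1 array left out and the rest normalized anew it lay between 1.11 and 1.20, with adjusted p-values from 0.0197 to 0.198. The call was lost without shChd9 sample 1 or 2 or control sample 1 or 2, when between 1 and 11 genes in all were called. It held without shChd9 sample 3 or control sample 3, when 99 and 124 genes were called. With the median of the feeder markers in place of their mean the slope was 0.59 ± 0.12 and was not called (adjusted p = 0.147, limma). The size also changed with the processing. The Hprt slope was 0.90 with the mean of its probes, 1.31 with an offset of 50 and 1.46 without background correction, called in each.

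B2m measured 14.03, 12.86 and 13.62 in shChd9 samples 1 to 3, against 13.48, 12.30 and 13.37 in control samples 1 to 3. The order of arrays was that of Hprt, but for shChd9 sample 3 and control sample 1, which changed places. The group means were 13.50 ± 0.59 in shChd9 and 13.05 ± 0.65 in control samples (SD, n = 3 each). The log2 fold change was 0.45 ± 0.37 (SE), with a 95% interval of -0.39 to 1.29 and an adjusted p of 0.928 (limma). The groups overlapped, and 2.01% of the tested genes had a larger pooled SD within groups than the 0.62 of B2m.

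The second B2m probe ordered the arrays exactly as the first did (rho = 1). ILMN_2739999 measured 13.74, 12.70 and 13.64 in shChd9 samples and 13.58, 12.07 and 13.51 in control samples, with r = 0.965 between the 2 probes. Its log2 fold change was 0.31 ± 0.42 (SE), adjusted p = 0.967 over all probes (limma).

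B2m also followed the feeder marker mean. Its slope was 1.16 ± 0.19 (SE), with a 95% interval of 0.72 to 1.59 and an adjusted p of 0.0330 over all genes (limma). Pearson's r was 0.972 and Spearman's rho 0.943, with exact two-sided permutation p-values of 0.00278 and 0.0167, which became 0.185 and 0.334 adjusted over all genes. Without the 2 arrays farthest from the median feeder mean r was 0.914. On the second probe the slope was 1.26 ± 0.26 (limma, adjusted p = 0.0880, all probes). With the feeder mean as a covariate the B2m log2 fold change was 0.01 ± 0.18 (SE), against 0.45 without it. Left-out arrays gave slopes from 1.00 to 1.28, with the call lost without shChd9 sample 1 or 2 or control sample 1 or 2. With the median of the feeder markers the slope was 0.62 ± 0.11 (adjusted p = 0.103, limma), and with the mean of the B2m probes it was 1.25 ± 0.23 (adjusted p = 0.0568, limma).

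**Figure D2:**
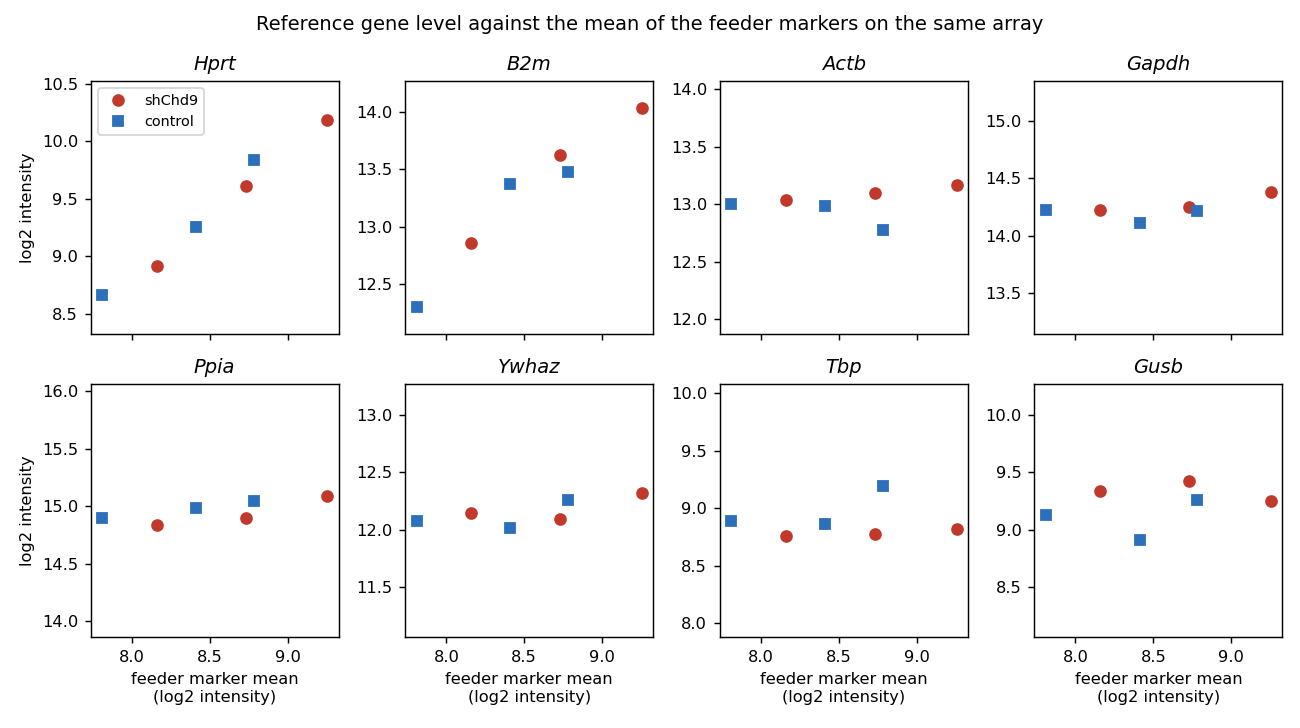
Log2 intensity of each reference gene (vertical axes, all of equal span) against the mean of 29 feeder fibroblast markers on the same array (horizontal axes, log2 intensity), with shChd9 samples as circles and control samples as squares. Hprt and B2m climb with the feeder mean (r = 0.990 and 0.972). The other 6 panels are close to flat at this span, with r from 0.132 for Tbp to 0.774 for Ppia.

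Among genes that work with B2m in class I presentation, 4 of 18 tested rose with the feeder mean, beside 0.942% of all genes, and 14 did not pass the test. The 18 slopes were all positive, from 0.02 for the interferon receptor subunit Ifngr2 to 1.60 for H2-K1, with a median of 0.59, against -0.01 over all genes. The class I heavy chain H2-K1 had a slope of 1.60 ± 0.21, adjusted p = 0.0140, and the heavy chain gene H2-Q7 one of 1.05 ± 0.18, adjusted p = 0.0372 (limma). The peptide transporter subunit Tap1 had 1.07 ± 0.19, adjusted p = 0.0405, and the immunoproteasome subunit Psmb8 1.29 ± 0.23, adjusted p = 0.0444 (limma). H2-D1, a further heavy chain, had 1.39 ± 0.29 at an adjusted p of 0.0739. Between shChd9 and control samples 12 of the 18 were higher and 6 lower, with 0 called, and the largest value was that of H2-Q7 at 0.64 ± 0.34, beside 0.56 ± 0.47 for H2-D1 (log2 fold change, SE). The immune cell markers Ptprc, Csf1r, Lyz2, Tyrobp, Adgre1 and Fcer1g were not detected on the required 3 arrays. The 3 immune markers tested summed to between 3591 and 3934 in shChd9 samples and between 2658 and 3981 in control samples, and none had a called slope. Of these, Laptm5 lay between 11.36 and 11.96 (log2), Cd14 between 4.45 and 6.20 and Aif1 between 4.49 and 5.21. The sum is therefore almost wholly that of Laptm5. The part of immune cells in the B2m level was not tested further.

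Genes of purine salvage and synthesis other than Hprt did not pass the slope test. Of 15 tested, 8 had a positive slope, the median was 0.01 and 0 were called, with a lowest adjusted p of 0.307 (limma). Over all genes 0.981% were called, a share too low for 0 of 15 to set this list apart. Between groups 3 were higher and 12 lower in shChd9 samples, with a median log2 fold change of -0.07, against 0.00 over all genes, and 0 called. Prps2, which makes the phosphoribosyl donor that the Hprt enzyme uses, measured -0.33 ± 0.20, and Impdh1, an enzyme of guanine nucleotide synthesis, 0.18 ± 0.16 (log2 fold change, SE). Whether the Hprt slope differs from that of these genes was not tested.

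The 10 genes whose pattern over the 6 arrays was most like that of Hprt had r between 0.989 and 0.998. They were Ly6e, Ier3, Reep5, Prelp, Slc35g2, Rbbp7, Col6a1, Marcks, Fgf7 and Dab2, of which Col6a1, a collagen chain, was on the feeder list. Called slopes stood at 1.00 for Ier3, an early response gene, 2.28 for Prelp, a matrix proteoglycan, 1.57 for Col6a1, 1.71 for the growth factor Fgf7 and 1.00 for the endocytic adaptor Dab2. The others were not called, among them the most alike, Ly6e, at 0.71 ± 0.16 (limma, adjusted p = 0.101). The chromatin protein Rbbp7 had a slope of 0.20 ± 0.16, since r measures the shape of the pattern and not its size. Of the 29 feeder markers 12 had r over 0.9 with Hprt, against 3.21% of all genes. The median r of the markers with Hprt was 0.85. It was only -0.06 for Acta2, 0.15 for Nid1, 0.19 for Tagln and 0.22 for Fn1. For B2m the most alike genes were the chemokine Cxcl16 and the interferon-induced Ifit3, both with r = 0.997. Those most like the other members were Lasp1 and Tepsin for Actb, Timm13 and Cflar for Gapdh, Tctex1d2 and 1810058I24Rik for Tbp, Parp4 and Zfp90 for Ppia, Fam219b and Lurap1l for Ywhaz, and Foxh1 and Psme3 for Gusb. Their r lay between 0.978 and 0.996, and none of these 12 had a called slope, beside 0.981% of all genes. Likeness was taken over the same 6 arrays and is a description. The slopes of genes picked by likeness follow in part from that choice, so their calls are no separate result.

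Gapdh measured 14.38, 14.22 and 14.25 in shChd9 samples, against 14.22, 14.22 and 14.12 in control samples. It had the narrowest within-group spread of the 8, with a pooled SD of 0.07. A larger one was found in 97.4% of the tested genes and in 90.6% of those near Gapdh in mean level. Its log2 fold change was 0.10 ± 0.14 (SE), with a 95% interval of -0.22 to 0.41 (adjusted p = 0.952, limma). The slope on the feeder mean was 0.07 ± 0.16, with an interval of -0.31 to 0.44. Other glycolysis genes gave 8 higher and 7 lower of 15, with a median log2 fold change of 0.01 and 0 called. Hk1, a hexokinase, measured 0.53 ± 0.21 and Aldoc, an aldolase, -0.32 ± 0.16 (log2 fold change, SE).

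Ppia was measured by 2 bright probes that hardly differed between arrays. ILMN_1233954 gave 15.08, 14.84 and 14.90 in shChd9 samples, against 15.04, 14.89 and 14.98 in control samples. ILMN_1250983 gave 14.92, 14.92 and 14.89 in shChd9 samples and 15.06, 14.97 and 14.89 in control samples. The log2 fold change of Ppia was -0.03 ± 0.15 (SE), with a 95% interval of -0.36 to 0.30 (adjusted p = 0.986, limma), and turned to 0.02 without shChd9 sample 2. The feeder slope was 0.19 ± 0.16, with an interval of -0.17 to 0.56. On the first probe r with the feeder mean was 0.774 (exact permutation p = 0.0764). Spearman's rho there was 0.886 (exact permutation p = 0.0333, or 0.416 adjusted over all genes). On the second probe r was -0.015. Other cyclophilins gave 4 higher and 8 lower of 12, with a median of -0.06 and 0 called. Ppid, a chaperone-associated cyclophilin, measured -0.33 ± 0.15 and Ppil2 -0.27 ± 0.16 (log2 fold change, SE).

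Ywhaz measured 12.31, 12.14 and 12.09 in shChd9 samples, against 12.26, 12.08 and 12.01 in control samples. In both groups the spread was about 0.12 (SD), and the groups overlapped. For shChd9 over control the log2 fold change was 0.07 ± 0.15 (SE), with a 95% interval of -0.27 to 0.41 (adjusted p = 0.969, limma), and the feeder slope 0.15 ± 0.17, with an interval of -0.23 to 0.54. Of the 6 other genes of its family 5 were higher and 1 lower, with 0 called. Sfn, the epithelial member, measured 0.33 ± 0.15 and Ywhag 0.11 ± 0.17 (log2 fold change, SE).

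Actb was 1 of 2 members whose groups did not overlap, beside 10.5% of all genes and 10.3% of all probes tested. It measured 13.17, 13.04 and 13.10 in shChd9 samples, against 12.78, 13.00 and 12.98 in control samples. This gave a log2 fold change of 0.18 ± 0.14 (SE), with a 95% interval of -0.15 to 0.51 (adjusted p = 0.928, limma), and the exact permutation p was 0.10, the smallest that 3 against 3 allows. The feeder slope was -0.03 ± 0.17. Its 4 other probes had log2 fold changes of -0.05, 0.04, 0.13 and 0.17 and overlapping groups. Their feeder slopes, in the same order, were -0.19, -0.19, -0.66 and -0.43, none called, and the mean of all 5 probes had a slope of -0.32 ± 0.21 (limma, adjusted p = 0.567). ILMN_1377923, with -0.05, measured 11.54, 11.01 and 11.19 in shChd9 samples and 10.91, 11.87 and 11.13 in control samples. Between Actb probes r over the arrays ranged from -0.02 to 0.83, so that the 5 probes did not order the arrays alike.

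Other actin genes leaned to the shChd9 side without a call. Of 20 actin and actin-binding genes 17 were higher and 3 lower, with a median log2 fold change of 0.11, against 0.00 over all genes, and 0 were called (limma, lowest adjusted p = 0.870). Acta1, the skeletal muscle actin, measured 0.70 ± 0.25 and Actg2, a smooth muscle actin, 0.45 ± 0.17 (log2 fold change, SE). The part of the higher feeder mean of the shChd9 samples in these values was not tested. The slope test called 1 of the 20, beside 0.981% of all genes. It was the actin-binding Pfn2, at 0.93 ± 0.16 (adjusted p = 0.0432, limma).

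Tbp was the other member with groups that did not overlap, and it lay lower in shChd9 samples. It measured 8.82, 8.76 and 8.77 in shChd9 samples, against 9.20, 8.89 and 8.86 in control samples. This gave a log2 fold change of -0.20 ± 0.15 (SE), with a 95% interval of -0.54 to 0.15 (adjusted p = 0.925, limma), and the exact permutation p was 0.10, the smallest possible. Without control sample 1, the highest, the value was -0.09. On its 3 dimmer probes the log2 fold changes were -0.03, -0.05 and -0.43, and the groups overlapped. The feeder slope of Tbp was 0.15 ± 0.17, with an interval of -0.24 to 0.55. Among 17 genes of its initiation complexes 9 were higher and 8 lower, with a median of 0.01 and 0 called. Taf5, a scaffold subunit, measured -0.47 ± 0.16 and Taf1d, a subunit of the RNA polymerase I factor, -0.38 ± 0.19 (log2 fold change, SE).

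Gusb measured 9.25, 9.34 and 9.42 in shChd9 samples, against 9.26, 9.13 and 8.91 in control samples. The groups overlapped by 1 control array. The log2 fold change was 0.23 ± 0.15 (SE), with a 95% interval of -0.12 to 0.58 (adjusted p = 0.917, limma), and the value was 0.14 without control sample 3. All 4 Gusb probes lay on the higher side, with log2 fold changes of 0.23, 0.09, 0.28 and 0.51. The last, on the dim probe ILMN_2741114, had the lowest p of the 21 member probes (limma, adjusted p = 0.922 over all probes). That probe measured 5.93, 5.61 and 6.21 in shChd9 samples and 5.73, 4.96 and 5.51 in control samples, with a feeder slope of 0.52 ± 0.22 that was not called. The feeder slope on the brightest probe was -0.01 ± 0.18. Among 20 other lysosomal genes 15 were higher and 5 lower, with a median of 0.08 and 0 called. They are hydrolases apart from the membrane proteins Lamp1 and Lamp2. The protease Ctsl measured 0.57 ± 0.17 and the mannosidase Manba -0.63 ± 0.23 (log2 fold change, SE).

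Compared between groups as a set of probes, the reference genes gave no call. After adjustment, limma put 0 of the 21 tested probes under 0.05, beside 0% of all 17719 probes. Without adjustment it put 0 of the 21 under 0.05, beside 5.32% of all probes and 5.42% of all genes. Of the 21 probes 14 were higher and 7 lower in shChd9 samples, with a median log2 fold change of 0.10, against 0.00 over all probes tested. By gene, 6 of the 8 had a 95% interval that stayed inside a 2-fold change up or down, beside 92.9% of all genes. The exceptions were Hprt and B2m. A p that missed the threshold does not show that a level was equal, and the intervals give the changes these arrays leave possible.

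**Figure D3:**
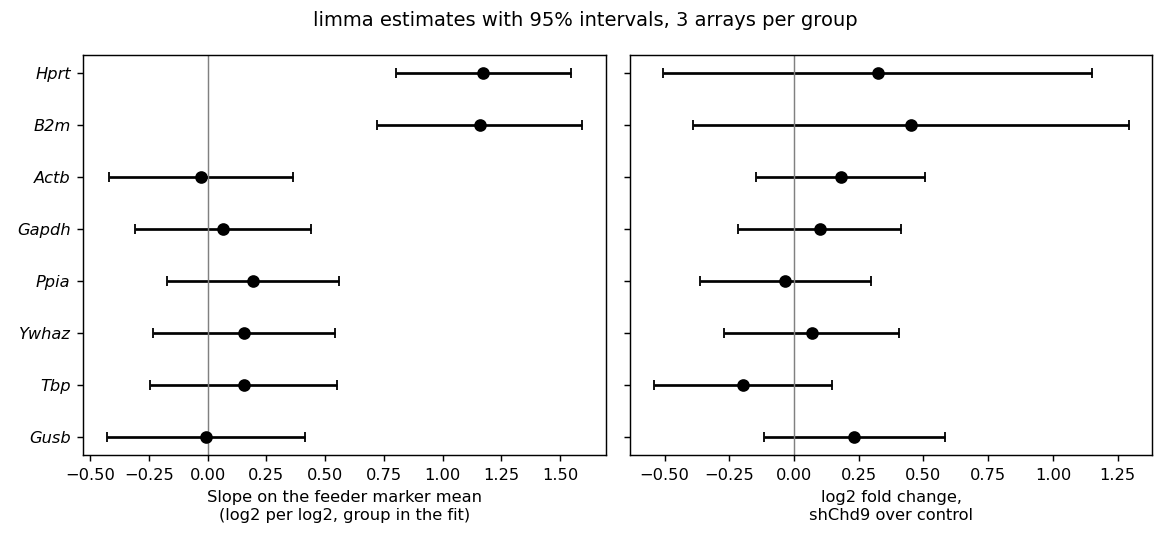
limma estimates for the 8 reference genes with 95% intervals: left, the slope on the feeder marker mean with group in the fit (log2 per log2), and right, the log2 fold change of shChd9 over control. Only the Hprt and B2m slopes lie clear of 0, at 1.17 and 1.16, and both of these genes have the widest fold change intervals.

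Ratios between members showed the same division. Over the 6 arrays the SD of the log2 ratio of Hprt to B2m was 0.20. The 12 ratios of Hprt or B2m to one of the other 6 had SDs between 0.50 and 0.62. The 15 ratios among the other 6 had SDs between 0.07 and 0.28, lowest for Gapdh with Ywhaz and next for Ppia with Ywhaz at 0.09. Hprt minus the mean of these 6 was -1.98, -3.14 and -2.48 in shChd9 samples and -2.29, -3.38 and -2.73 in control samples (log2). B2m minus the same mean was 1.86, 0.80 and 1.53 in shChd9 samples and 1.35, 0.27 and 1.39 in control samples. Measured against transcripts of the same sample, both genes were again lowest in shChd9 sample 2 and control sample 2, the arrays of lowest feeder mean in their groups.

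**Figure D4:**
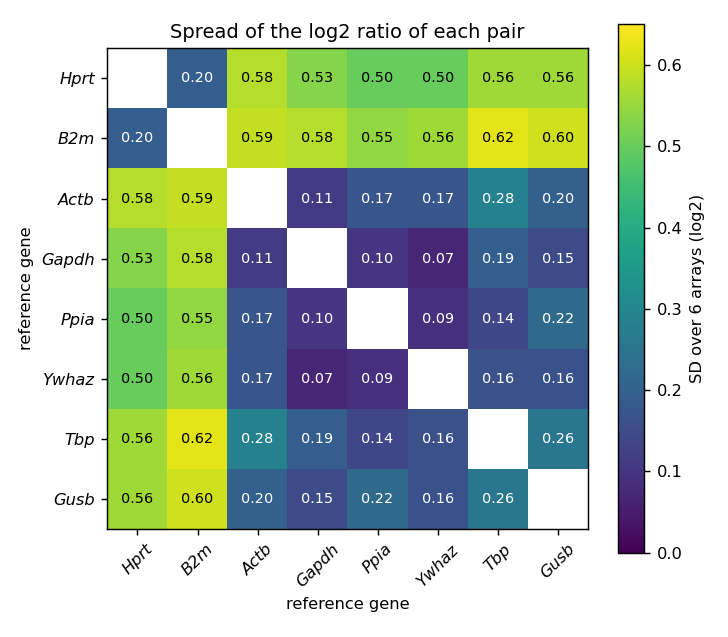
SD over the 6 arrays of the log2 ratio of each pair of reference genes, given in the cells and as colour. The ratio of Hprt to B2m has an SD of 0.20, their ratios to the other 6 genes have SDs from 0.50 to 0.62, and ratios among the other 6 lie between 0.07 and 0.28.

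The choice of reference gene changed the size and above all the spread of the Chd9 difference. Relative to Gapdh, Chd9 was -7.82, -7.91 and -7.61 in shChd9 samples and -6.85, -6.49 and -6.32 in control samples (log2 Chd9 minus log2 Gapdh). This left 42.8% of the control level. Relative to Hprt, it was -3.63, -2.60 and -2.97 in shChd9 samples and -2.47, -0.92 and -1.45 in control samples, which left 36.6%. The pooled SD within groups was 0.22 relative to Gapdh and 0.67 relative to Hprt. The lowest spread was relative to Actb, at 0.12.

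By reference, the Chd9 log2 fold change was -1.58 relative to B2m, -1.45 to Hprt, -1.36 to Gusb, -1.31 to Actb, -1.23 to Gapdh, -1.19 to Ywhaz, -1.09 to Ppia and -0.93 to Tbp. The share of Chd9 left ran from 33.5% relative to B2m to 52.5% relative to Tbp, and was 41.5% relative to the mean of all 8. Relative to every member the shChd9 arrays lay below the control arrays as processed here, with an exact two-sided permutation p of 0.10 for each, the smallest that 3 against 3 allows. The gap between the groups was narrow with Hprt, at -2.60 in the highest shChd9 sample against -2.47 in the lowest control sample. Without background correction these values shrank, to -0.91 relative to Hprt, -0.73 to Gapdh and -0.47 to Tbp. With the mean of all tested probes of each gene, the third Chd9 probe included, they were -0.95, -0.73 and -0.45. The exact permutation p was then 0.20, with groups no longer separated, relative to Hprt and B2m under both of these settings and in the deposited series table, to Hprt with an offset of 50, and to Tbp with the mean of probes.

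**Figure D5:**
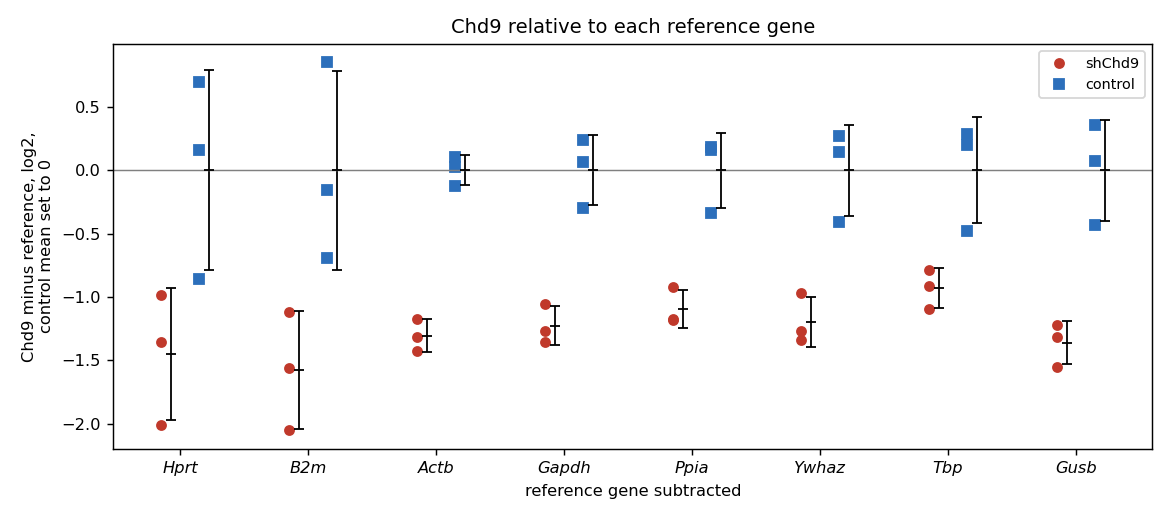
Log2 Chd9 minus log2 of each reference gene, with the control mean set to 0, by array (shChd9 left, control right for each gene), and the mean and SD of 3 arrays in black. The shChd9 arrays lie below the control arrays for every reference, and the SD is widest with Hprt and B2m.

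In a longer list of common reference genes, 22 of 32 were tested. Their pooled SD within groups had a median of 0.14 and a range of 0.08 to 0.27, against a median of 0.22 over all genes. The 6 narrow members had a median of 0.11 and a range of 0.07 to 0.14. For these members the share of genes of like mean level with a larger pooled SD ran from 61.0% for Ywhaz to 90.6% for Gapdh. The longer list's slopes on the feeder mean ran from -0.35 to 0.40 with 0 called (limma, lowest adjusted p = 0.377), beside 0.981% of all genes. Those of the 6 members ran from -0.03 to 0.19. Between groups 11 were higher and 11 lower in shChd9 samples, with a median log2 fold change of -0.01 and 0 called. Pgk1, a glycolytic kinase carried like Hprt on the X chromosome, measured -0.25 ± 0.16, with a feeder slope of 0.13 ± 0.18. Rab7, a GTPase of late endosomes, measured 0.23 ± 0.16 (log2 fold change, SE). The ribosomal protein gene Rpl32 and the cytochrome gene Cyc1 had pooled SDs of 0.08.

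The mean of the 20 stem cell markers was 10.62, 10.84 and 10.67 in shChd9 samples and 10.72, 10.88 and 10.70 in control samples. It was highest in shChd9 sample 2 and control sample 2, where Hprt and B2m were lowest in their groups. Over the 6 arrays it had r = -0.929 and rho = -0.829 with the feeder mean, given as a description. Single markers had pooled SDs within groups from 0.04 to 0.46, the highest that of the transcription factor Sox2. None of the 20 had a called slope, beside 0.981% of all genes, and their median slope was -0.26.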

How the data were processed

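Measured were 3 shChd9 and 3 control samples of mouse embryonic stem cells, grouped by the transfection in the labels, with 1 Illumina bead array each. They are numbered within a group in the order of deposit, which is not taken as a pairing. The labels do not say whether samples were matched between groups. The deposited table holds, per the file headers, a raw intensity and a detection p-value per probe and array. Per the submitters' processing notes GenomeStudio was used, and its settings are not given in the sources used here. The authors' deposited series table holds linear intensities that matched the raw intensities after quantile normalization to within 1.59 units. Its column medians were 111.377, 111.385 and 111.368 in shChd9 and 111.400, 111.389 and 111.397 in control samples. Gene symbols came from GEO's platform annotation, updated through Entrez identifiers (34885 probes had 1 symbol, 18 several and 10378 none).

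In limma 3.58.1 (R 4.3.3), neqc corrected the background (negative controls inferred from detection p-values), applied an offset of 16 and quantile normalization, and took log2. Probes detected on at least 3 arrays were tested (17719 probes, 10194 genes, 1 probe per gene by highest mean) with lmFit and eBayes, two-sided, Benjamini-Hochberg over all probes or genes, threshold 0.05. Slopes come from a fit with group and the feeder marker mean, which has 3 residual degrees of freedom. Quantile normalization removes any overall difference between arrays. The tests were run on simulated data with known changes. Its noise was independent between probes, so that run does not check the calls made here. Named beyond the members are Chd9, the genes most correlated with a member (10 for Hprt, 2 for each other) and the 2 genes of smallest p in each pathway list. H2-K1, Tap1, Psmb8, Ifngr2, Pfn2, Rpl32, Cyc1, Sox2, Acta2, Nid1, Tagln and Fn1 were chosen after their values were seen. The members and lists were chosen with earlier results of these data known.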

Additional observations from a re-analysis of the deposited data

How the results depend on the processing

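The count of called reference gene probes was 0 under every alternative run: no background correction, normexp without controls, median scaling, the deposited series table, an offset of 50, no detection filter, detection on all 6 arrays, the feeder covariate and each array left out. Under the settings that kept all 6 arrays, the Hprt and B2m slopes were called except where stated here. Where called, the Hprt slope lay between 0.90 and 1.46 and the B2m slope between 1.02 and 1.65. With the median of the feeder markers they were 0.59 and 0.62, and with the mean of each gene's probes the B2m slope was 1.25, none of them called. With an array left out the Hprt slope ranged from 1.11 to 1.20 and the B2m slope from 1.00 to 1.28, each called in 2 of 6 runs. The cause was not tested. With the feeder covariate the Hprt log2 fold change was -0.12. Left-out arrays took the Hprt fold change from 0.01 to 0.65, that of B2m from 0.08 to 0.78 and that of Ppia from -0.101 to 0.0189. Slopes near 0 changed sign. The Gusb slope was 0.10 without the group term, 0.0072 with the marker median, 0.063 with median scaling and 0.23 with the mean of its probes, and the Actb slope 0.057 without the group term and -0.32 with the mean of its probes. With arrays left out they ranged from -0.15 to 0.10 for Gusb, from -0.13 to 0.080 for Actb and from -0.0066 to 0.15 for Gapdh. Chd9 relative to Hprt or B2m, and to Tbp with the mean of probes, lost the separation of the groups under some settings (exact permutation p = 0.20). The alternatives for the other slopes and for B2m were chosen after seeing the data. No paired analysis was run, because the labels give no replicate numbers and do not say whether samples were matched between groups. The numbers used here follow the order of deposit. If samples were matched, the variation they share is counted here as spread within groups. Signal near background limits the dim probes of Hprt, Actb, Tbp and Gusb.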
